A study of Mus musculus with 16 samples.

Results

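The marker genes of neutrophils, T and natural killer (NK) cells and B cells were examined in the hypothalamus of chimeric mice. The set holds 32 genes, of 34607 genes named on the array, and was defined by gene name: 11 genes of neutrophils, 16 of T and NK cells and 5 of B cells. All 32 had at least 1 probe, and 10 had 2 probes, which gave 42 probes in all. Gene expression had been measured in total RNA of 16 animals on 1-colour Agilent arrays, 1 animal per array, to compare mice that carried adrenergic receptor knockout marrow with control mice.

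The 8 KO chimeras were animals of the strain C57BL/6J, irradiated with a lethal 950 Rad. They were then given whole marrow of Adrb1tm1BkkAdrb2tm1Bkk/J mice, which lack the beta-1 and beta-2 adrenergic receptors, by 1 injection behind the eye. That marrow was given at a ratio of 1:4 to C57BL/6J, and the animals recovered for 2 to 3 months. The 8 control mice were C57BL/6J mice whose labels repeat the irradiation and the same treatment text but name no donor strain. It is therefore not settled by the labels whether control mice received marrow, or which. The labels give no age or sex, and do not say whether blood was flushed from the vessels before the tissue was taken.

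Neutrophils carry their weapons in granules that are filled during maturation in the marrow. Primary granules hold myeloperoxidase and elastase, later granules hold lactoferrin and cathelicidin, and the S100a8 and S100a9 proteins fill the cytosol. T cells are recognised by the CD3 chains of the antigen receptor and its kinases Lck and Zap70, NK and killer T cells by granzymes and perforin, and B cells by the Cd79 chains of their own receptor. The intact brain holds few of these cells, since its resident immune cells are microglia. In whole tissue, fewer cells of a type and less RNA per cell cannot be told apart.

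Several genes had a pair of probes that were seen on very different numbers of arrays, and their sequences are shown because every later result rests on which probe is read. A probe was counted as seen on an array where the scanner marked at least 50% of its spots as well above background. Each line gives the last 30 bases of a 60-base probe, 5′ to 3′, and capitals mark AATAAA, the hexamer that often stands before the end of a messenger RNA. The probes of Mpo lie at chr11:87617840-87617899 and chr11:87615121-87615180 and those of Nkg7 at chr7:50693530-50693589 and chr7:50693148-50693207, all on the plus strand in mm9.
Mpo, seen on 15 arrays: tatttgtacctgaggttcacactAATAAAa
Mpo, seen on 0 arrays: gtggtggatgagatccgggagcgactgttt
Nkg7, seen on 16 arrays: ccaccttgccttatccttcattggtttctt
Nkg7, seen on 0 arrays: ccagtatgagatggagccagactccatttt
Cd4, seen on 16 arrays: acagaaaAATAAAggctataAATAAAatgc
Cd4, seen on 12 arrays: gcagtgtctactgagtgaaggtgataaggt
Cd2, seen on 9 arrays: tccAATAAAaagctgtgtggatttatcttc
Cd2, seen on 0 arrays: aaaggtctgtccttctatgtcacagtgggg

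The 3 CD3 chains form 1 receptor complex and are known to be made together in T cells, yet their probes differed as widely. They lie close together on chromosome 9 in mm9, Cd3e at chr9:44806828-44806887 and Cd3g at chr9:44777868-44777927 on the minus strand.
Cd3e, seen on 16 arrays: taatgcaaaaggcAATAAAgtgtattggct
Cd3g, seen on 3 arrays: agaactgtcaaagaaattttggtctttttt
Cd3d, seen on 0 arrays: agatacccagtacagccgtcttggagggaa

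The letters AATAAA were searched on the probe strand of the whole 60 bases, with overlapping matches counted once. They were found in 9 of the 42 member probes (21.4%), against 5602 of all 55681 probes (10.1%). Of the 9 member probes with the hexamer 8 were seen on 15 or 16 arrays (88.9%), and of the 33 without it 6 were (18.2%). Over all probes these shares were 65.7% with the hexamer and 51.7% without it. These are descriptions of the probes, and whether a probe's signal came from the transcript it is named for was not tested.

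The arrays differed in how much of the tissue's RNA they showed. The share of non-control spots well above background was 46.0% to 71.9% in KO chimeras (median 64.3%) and 58.9% to 72.9% in control mice (median 64.6%). KO chimera 1 had the lowest share and control 8 the highest, and these were the 2 arrays of slide 4. Of 18 hypothalamic genes 17 were measured and 0 passed the test between groups by limma. Of these 17, 3 had an unadjusted p under 0.05 (17.6%, against 20.7% of all genes tested). That test compares the groups and cannot check the tissue label. Of 13 genes typical of the neighbouring thalamus 2 fell (Prkcd and Adarb1, median of the list -0.47), and of 13 oligodendrocyte genes 5 fell (Mal, Mobp, Cldn11, Fa2h and Mog, median -0.36). Of 8 measured red cell genes 1 fell, the beta globin Hbb-b2 (-0.58 on the log2 scale, adjusted p = 0.0215 by limma), and 0 had a positive difference. The summed red cell signal, relative to each array's 75th percentile, was 77.2 to 120.5 in KO chimeras (median 98.4) and 95.1 to 153.6 in control mice (median 110.6). The part of dissection and of blood in the values below was not tested.

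**Figure D1:**
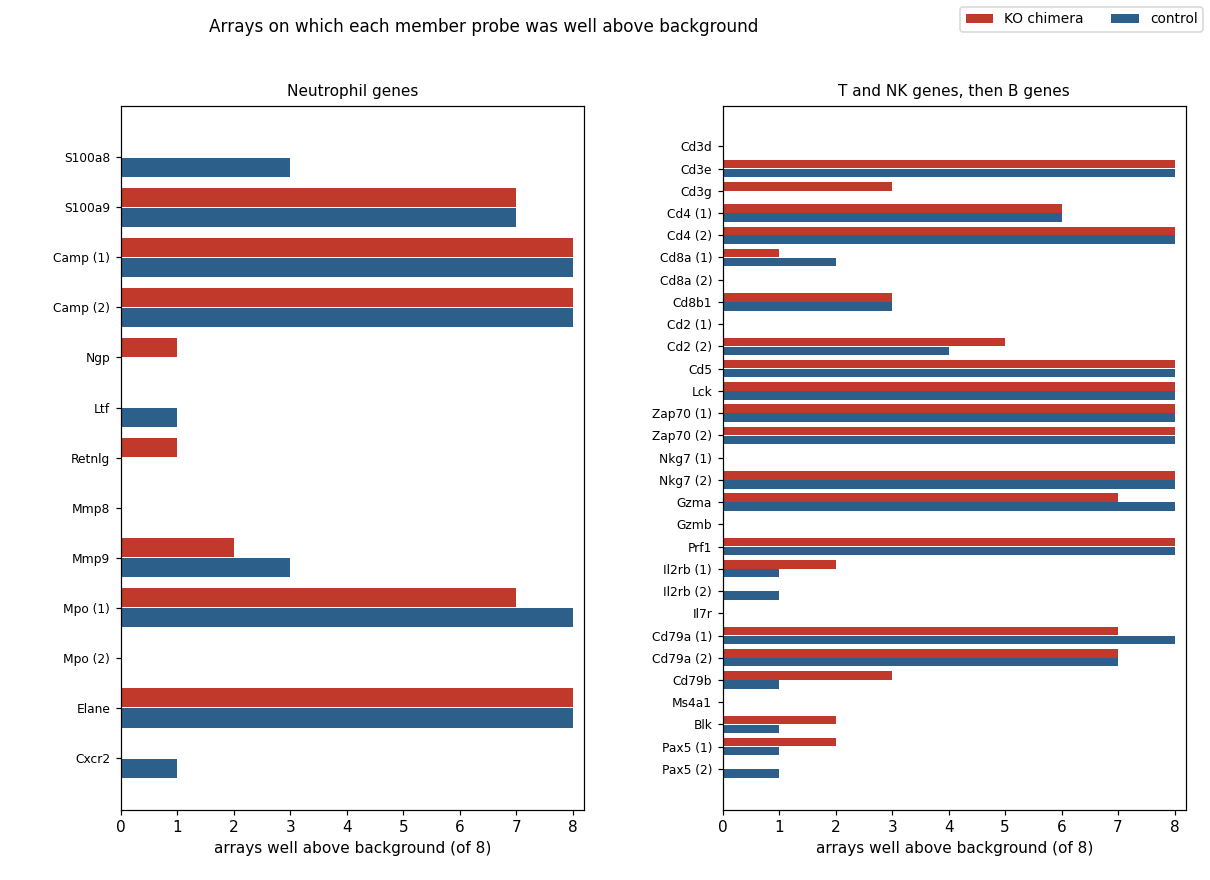
Number of arrays (horizontal axis, of 8 per group) on which each member probe was well above background, in KO chimeras (red) and control mice (blue); the numbers in brackets tell the 2 probes of a gene apart. Mpo, Nkg7 and Cd2 each pair a probe seen on many arrays with a probe seen on 0 arrays.

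Most of the marker genes gave little or no signal in either group. The best probe of 9 genes was seen on all 16 arrays, that of 5 genes on 8 to 15 arrays, that of 13 genes on 1 to 7 arrays, and that of 5 genes on 0 arrays. The genes on 0 arrays were Mmp8 (a neutrophil collagenase), Cd3d, Gzmb (granzyme B of killer cells), Il7r (the interleukin-7 receptor of T cells) and Ms4a1 (the B cell surface protein CD20). A gene was tested if a probe was seen on at least 8 of the 16 arrays. This left 14 of the 32 genes (43.8%), against 24363 of all 34607 genes (70.4%).

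In a single animal, 10 to 21 of the 32 genes were seen in KO chimeras (median 15.5) and 13 to 22 in control mice (median 15.5). Neutrophil genes numbered 4.25 ± 1.04 of 11 in KO chimeras and 4.88 ± 0.99 in control mice (mean ± SD, n = 8 each). T and NK genes numbered 9.63 ± 1.69 of 16 in KO chimeras and 9.38 ± 1.51 in control mice. B genes numbered 1.75 ± 1.39 of 5 in KO chimeras and 1.5 ± 0.93 in control mice. With all 16 arrays, each of these differences was smaller than the SD within either group. The count moved with the array: KO chimera 1 had the fewest genes, 10, and control 8 the most, 22, as they had the fewest and the most spots well above background. Without the 2 arrays of slide 4, the mean was 16.4 of 32 genes in KO chimeras and 14.9 in control mice (n = 7 each), so the direction of the overall difference rests on that slide. By class the difference without slide 4 was -0.14 for neutrophil genes, 1 for T and NK genes and 0.71 for B genes.

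**Figure D2:**
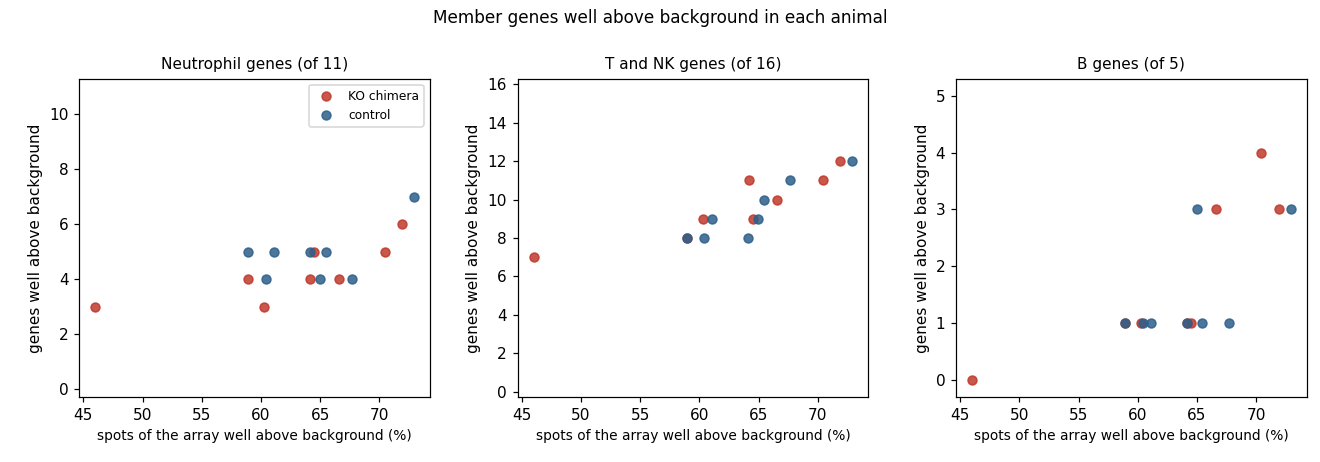
Each point is 1 animal (KO chimeras red, control mice blue); the horizontal axis is the percent of the array's non-control spots well above background and the vertical axis the number of member genes well above background, for 11 neutrophil, 16 T and NK and 5 B genes. The groups overlap in all 3 panels. The array with 46.0% of its spots above background shows the fewest T and NK genes and the fewest B genes. It ties with KO chimera 3 for the fewest neutrophil genes, 3.

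Between the groups, 0 of the 14 tested genes passed an adjusted p of 0.05 by limma, against 3.83% of all genes tested (933 of 24363). Of the 14, 3 had an unadjusted p under 0.05 (21.4%), all of them T cell genes, against 20.7% of all genes, so the members' share was near the background. The groups overlapped for all 14, while 0.956% of all genes had groups that did not overlap. The median log2 difference of the 14, taken as KO chimera minus control, was -0.02, with 6 positive and 8 negative, and the median of all genes was -0.00034. After normexp background correction 10 of the 14 were positive and their median was 0.04. Of the 933 genes called 250 were higher and 683 lower (26.8% higher), and after normexp correction 27 were higher and 244 lower (9.96% higher). By class it was -0.05 for 4 neutrophil genes, -0.02 for 9 T and NK genes and -0.14 for 1 B gene. The arrays were scanned on 2 days with both groups on each. Within scan day 1 and within scan day 2 again 0 members passed, where only 0 and 7 of all genes did.

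**Figure D3:**
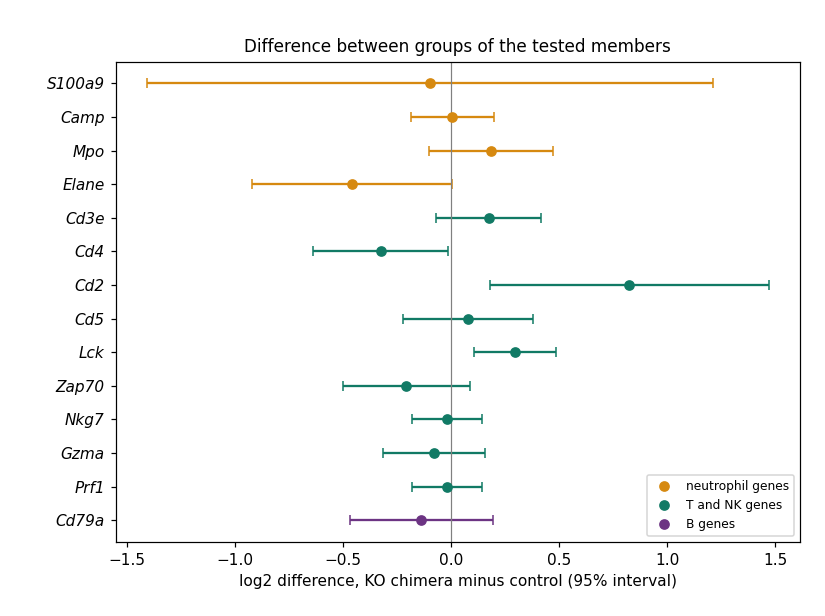
Difference in log2 signal, KO chimera minus control, of the 14 tested members with 95% intervals from limma (n = 8 each). The intervals of Cd2 and Lck lie above 0, that of Cd4 lies below 0, the other 11 include 0, and none of the 14 passed the adjusted threshold.

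Among neutrophil genes, the primary granule enzymes Elane and Mpo and the cathelicidin gene Camp were seen on the most arrays by their best probes. Levels are log2 signal minus the array's 75th percentile, and each is read only against the same probe in other animals. Elane, the neutrophil elastase gene, was seen in all 16 animals, with levels from 1.54 over a median of 1.92 to 2.70 in KO chimeras and from 1.83 over 2.51 to 3.18 in control mice. Of the KO chimeras 7 lay below the control median and 3 below the lowest control, though the ranges overlapped. The difference was -0.46 ± 0.22 (SE, 95% interval -0.92 to 0.0047, adjusted p = 0.246 by limma). It was negative in 5 of 5 slides that held both groups, but only -0.0023 on slide 5 and -0.14 on slide 1. Of these slides 2, slides 4 and 5, held 1 animal of each group. The Elane difference was -0.40 within scan day 1 and -0.52 within scan day 2. Camp, the gene of cathelicidin, was seen in all 16 animals with both probes, and its mean was -1.74 ± 0.15 in KO chimeras and -1.74 ± 0.21 in control mice. Its difference was 0.0050 with a 95% interval of -0.19 to 0.20. Mpo, the gene of myeloperoxidase, was at -3.63 ± 0.18 in KO chimeras and at -3.81 ± 0.36 in control mice by the probe seen on 15 arrays. All 8 KO chimeras lay above the control median, but 1 control mouse was higher than every KO chimera. The difference was 0.19 ± 0.14 (adjusted p = 0.458 by limma), but 0.032 with quantile normalization, 0.023 with the deposited table and 0.11 with normexp. It was positive in 3 of the 5 slides.

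The paired calprotectin genes S100a8 and S100a9, whose proteins neutrophils carry in bulk, varied more between animals than between groups. S100a9 was well above background in 7 KO chimeras and 7 control mice. Its level was -5.50 at the lowest, -4.19 at the median and -0.55 at the highest in KO chimeras, and -5.54, -3.45 and -1.86 in control mice. KO chimera 1 stood above all other animals, on the array with the fewest spots above background, and the groups overlapped over nearly their whole range. The difference of -0.10 ± 0.62 had a 95% interval of -1.41 to 1.21 (adjusted p = 0.946 by limma), and it was 0.71 within scan day 1 and -0.91 within scan day 2. Without the 2 arrays of slide 4 it was -0.50. S100a8 was well above background in 0 of 8 KO chimeras and in 3 of 8 control mice, controls 2, 7 and 8. Its levels overlapped all the same, at -7.00 to -4.43 in KO chimeras and -7.20 to -3.73 in control mice, and it was under the limit for a test.

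**Figure D4:**
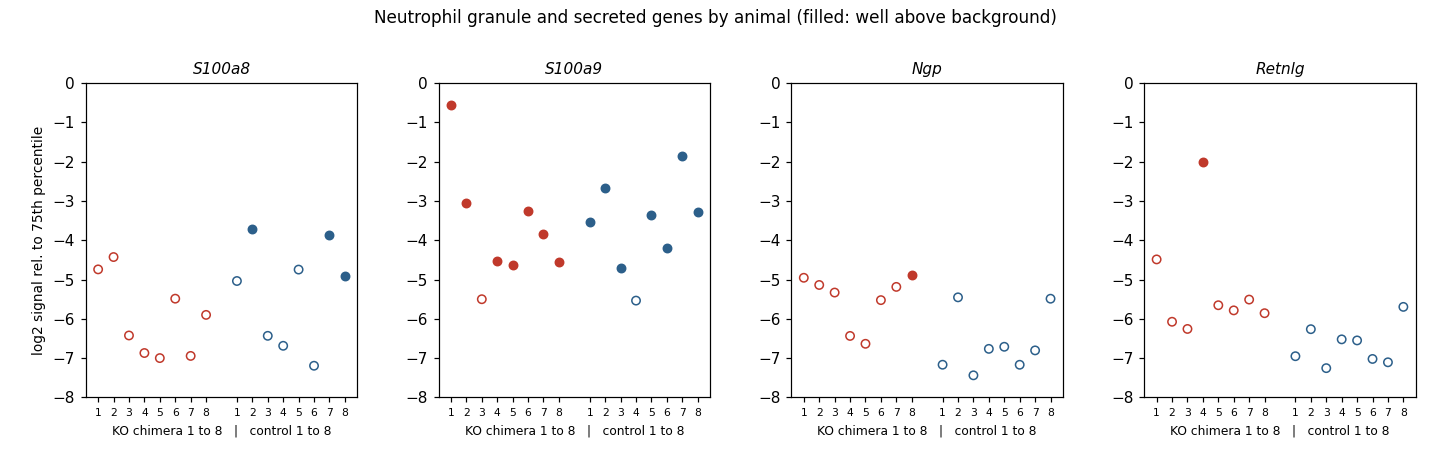
Level of S100a8, S100a9, Ngp and Retnlg (log2 signal minus the array's 75th percentile) in KO chimeras 1 to 8 (red) and control mice 1 to 8 (blue), filled where well above background. S100a9 reaches -0.55 in KO chimera 1, Retnlg reaches -2.00 in KO chimera 4, and S100a8 is filled only in controls 2, 7 and 8.

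The other neutrophil genes were seen in a few single animals. Retnlg, a secreted resistin-like protein made by neutrophils, was seen only in KO chimera 4, at -2.00, where the other KO chimeras lay between -6.26 and -4.49 and the control mice between -7.26 and -5.70. Ngp, a later granule protein, was seen only in KO chimera 8, at -4.88, and Ltf, the gene of lactoferrin, only in control 4, at -3.61. Mmp9, a gelatinase with 10 spots, was seen in 2 KO chimeras and 3 control mice, and Cxcr2, the receptor that calls neutrophils out of marrow, in 0 KO chimeras and 1 control mouse. These animals were different ones for Retnlg, Ngp and Ltf. In KO chimera 1, where S100a9 was high, S100a8 lay at -4.74 and was not well above background. On that array Gzma at -2.72 and Cd79a at -2.98 were not well above background either. The flag therefore cannot tell whether S100a8 was raised with S100a9 in that animal.

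T cell receptor and signalling genes included the 3 members with an unadjusted p under 0.05. Lck, the kinase that starts T cell receptor signalling, was seen in all 16 animals at -0.35 to 0.29 in KO chimeras (median -0.19) and -0.63 to -0.16 in control mice (median -0.43). All 8 KO chimeras lay above the control median and 6 control mice lay below the lowest KO chimera, but the ranges overlapped. The difference was 0.29 ± 0.089 (SE, 95% interval 0.11 to 0.48), a ratio of 1.23, with an unadjusted p of 0.00429 and an adjusted p of 0.0713 by limma over all genes. It was positive in 5 of 5 slides, 0.32 within scan day 1 and 0.26 within scan day 2. It was 0.23 to 0.33 with each animal left out in turn, with an adjusted p of 0.0547 or more. Without the 2 arrays of slide 4, where KO chimera 1 was the highest animal, it was 0.23 with an adjusted p of 0.112. If probes had to be seen on all 16 arrays, which left fewer genes to adjust over, its adjusted p was 0.0498.

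The CD2 and CD4 surface proteins, which help T cells hold on to the cells they scan, had differences of opposite sign. Cd2 was at -5.09 to -4.06 in KO chimeras (median -4.42) and -7.14 to -4.46 in control mice (median -5.12). Its probe was near background and was seen in 5 KO chimeras and 4 control mice. The 8 KO chimeras lay above the control median and 4 control mice lay below the lowest KO chimera, with a difference of 0.82 ± 0.31 (adjusted p = 0.135 by limma), 0.41 within scan day 1 and 1.24 within scan day 2. The Cd2 difference was smaller with the 3 other scalings, at 0.32 with quantile normalization, 0.31 with the deposited table and 0.21 with normexp background correction. Cd4, by the probe seen on all arrays, was at 2.60 to 3.50 in KO chimeras (median 3.01) and 2.95 to 3.74 in control mice (median 3.27), and 6 KO chimeras lay below the control median. Its difference by that probe was -0.33 ± 0.15 (adjusted p = 0.219 by limma). The second Cd4 probe, with 10 spots and seen on 12 arrays, gave a difference of the other sign, 0.15. It was much dimmer, at -4.21 ± 0.15 in KO chimeras and -4.36 ± 0.18 in control mice.

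For the other T and NK genes the groups lay closer. Cd3e, a signalling chain of the CD3 complex, was at 1.60 ± 0.19 in KO chimeras and 1.43 ± 0.27 in control mice, a difference of 0.17 ± 0.11 (adjusted p = 0.406 by limma). All 8 KO chimeras lay above the control median, and 4 control mice lay below the lowest KO chimera. The Cd3e difference was positive in only 3 of the 5 slides with both groups, and was 0.097 with slide as a fixed block. Zap70, the kinase that binds the activated receptor, was at 0.25 ± 0.23 in KO chimeras and 0.46 ± 0.35 in control mice (adjusted p = 0.414 by limma). Cd5, a brake on receptor signalling, was at -2.44 ± 0.38 in KO chimeras and -2.51 ± 0.20 in control mice. The killer cell genes Prf1 (perforin), Gzma (granzyme A) and Nkg7 (a granule protein) had differences of -0.02, -0.08 and -0.02, with 95% intervals of -0.18 to 0.14, -0.31 to 0.16 and -0.18 to 0.15. Their groups overlapped almost fully.

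T and NK genes under the limit for a test were scattered over animals. Cd8b1, a chain of the killer T cell co-receptor, was seen in 3 KO chimeras and 3 control mice, and was highest in KO chimera 3 at -2.28, where the other animals lay between -5.57 and -4.19. Cd8a, the partner chain, was seen in 1 KO chimera and 2 control mice. Cd3g was seen in 3 KO chimeras and 0 control mice, and Il2rb, a receptor chain for interleukins 2 and 15, in 2 KO chimeras and 1 control mouse by the better of its probes. A gene seen in so few animals gives no measured difference between groups.

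B cell genes were the least seen. Cd79a, a signalling chain of the B cell receptor, was at -2.98 to -1.49 in KO chimeras (median -2.26) and -2.32 to -1.77 in control mice (median -2.14), and was seen on 15 arrays. The KO chimeras lay both above and below the control range, and the difference was -0.14 ± 0.16 (adjusted p = 0.656 by limma). It was -0.03 without KO chimera 1 and -0.22 with quantile normalization, and the second Cd79a probe, seen on 14 arrays, gave 0.09. Cd79b, the partner chain, was seen in 3 KO chimeras and 1 control mouse. Blk, a B cell kinase, and Pax5, the factor that fixes B cell identity, were each seen in 2 KO chimeras and 1 control mouse by the better probe. Cd79a was thus seen on nearly all arrays and Ms4a1 on 0, although both are genes of the same cell type.

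**Figure D5:**
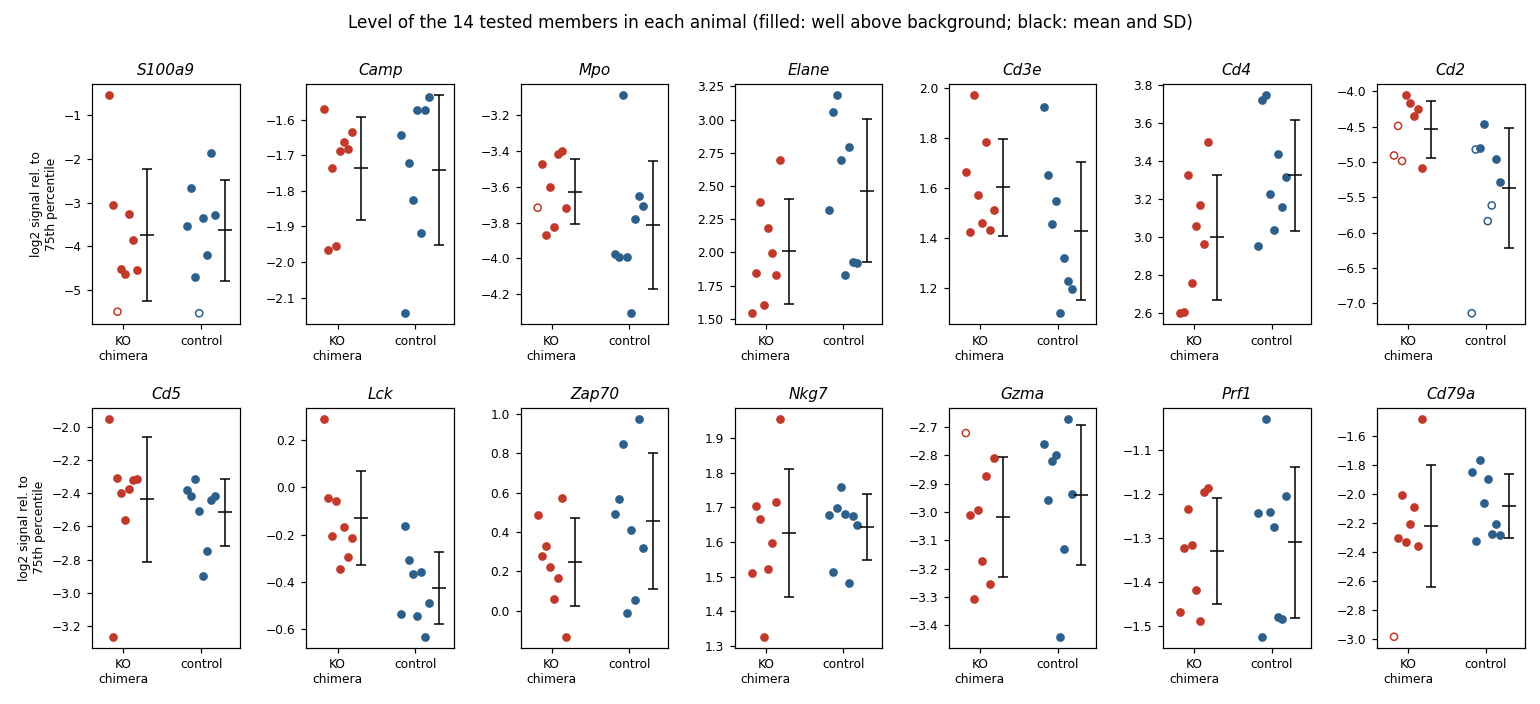
Level of each of the 14 tested members (log2 signal minus the array's 75th percentile, a separate scale per gene) in each of 8 KO chimeras (red) and 8 control mice (blue), filled where well above background, with mean and SD in black. The groups overlap in every panel, S100a9 has the widest spread, and the 8 KO chimeras lie above the control median for Lck, Cd2, Cd3e and Mpo.

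Some of the tested genes have close neighbours, by the RefSeq gene table of GRCm38.p6, that were also seen on the arrays. Within 8 kb of Cd4 lie P3h3 and Gpr162, within 8 kb of Lck lie Hdac1 and Fam167b, and all 4 were seen on all 16 arrays. Elane lies beside Prtn3, the gene of another neutrophil protease, seen on 14 arrays, and Med16, a subunit of the Mediator complex, seen on 16. Gzma overlaps Cdc20b, seen on 1 array, and S100a9, Cd3e and Prf1 have no neighbour that close. Whether any probe read a neighbour's transcript was not tested.

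Wider lists of the same cell types were measured in the same fit. Of 35 further neutrophil genes 21 were tested and 1 fell, Ccl6, a chemokine of myeloid cells. It was at -3.16 ± 0.27 in KO chimeras and -2.51 ± 0.25 in control mice, a difference of -0.65 ± 0.12 (adjusted p = 0.0147 by limma), but it was -0.22 with an adjusted p of 0.417 after normexp background correction. Lyz1, a lysozyme of myeloid cells, had a difference of -1.35 ± 0.45 (adjusted p = 0.0990), at 0.14 to 0.80 in KO chimeras and -0.88 to 3.49 in control mice, so the spread lay among control mice. Without control 2 the Lyz1 difference was -1.72 with an adjusted p of 0.0171. Its near copy Lyz2 differed by -1.23 ± 0.60 (adjusted p = 0.253 by limma). Lyz2 was at -3.29 to -2.24 in KO chimeras and -5.3 to 0.41 in control mice, again with the wider spread among control mice. Whether the Lyz1 probe also reads Lyz2 was not tested. Ctsg, the gene of the granule protease cathepsin G, differed by 0.42 (adjusted p = 0.226 by limma), and by 0.16 with normexp. Of the 21 genes 4 had an unadjusted p under 0.05 (19%).

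Of 40 further T and NK genes 20 were tested and 0 passed by limma, with 4 at an unadjusted p under 0.05 (20%, against 20.7% of all genes). The 3 with the smallest p were Cd6, a T cell adhesion receptor (0.41 ± 0.14, adjusted p = 0.0942), Ifng, the gene of interferon gamma (0.68 ± 0.23, adjusted p = 0.0994), and Tbx21, the T-bet factor of killer and helper cells (0.51 ± 0.19, adjusted p = 0.136). None of the 3 passed, and each difference was smaller with other scalings. With normexp they were 0.25 for Cd6, 0.22 for Ifng and 0.21 for Tbx21, and with quantile normalization 0.30, 0.25 and 0.36 for the same genes. The median of the 20 was 0.14, with 14 positive (70%, against 49.9% of all genes tested). Some of the 20 lay near the limit for a test, with Eomes seen on 8 arrays and Ifng, Cd27 and Ccr7 on 9. Of all genes under that limit, 88% had a positive difference in a fit with no filter. The part of dim signal in the share of the 20 was not tested. Without slide 4, Tbx21 was at 0.68 with an adjusted p of 0.0466. Ifng was well above background in 5 KO chimeras and 4 control mice only.

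Of 23 further B genes 15 were tested and 1 fell, Blnk, the adaptor that links the B cell receptor to its enzymes. Blnk was at -1.19 ± 0.18 in KO chimeras and -0.63 ± 0.25 in control mice, a difference of -0.57 ± 0.11 (adjusted p = 0.0137 by limma). The groups did not overlap, as for 0.956% of all genes tested, but they almost touched. KO chimeras lay between -1.446 and -0.919 and control mice between -0.913 and -0.130. Bank1, a B cell scaffold (0.44 ± 0.15, adjusted p = 0.114), and Vpreb1, a chain of the early B cell receptor (0.51 ± 0.25, adjusted p = 0.250), had differences of the other sign. With quantile normalization these were 0.25 and 0.096, and with normexp 0.20 and 0.17. The median of the 15 was 0.02, and 2 of them had an unadjusted p under 0.05 (13.3%).

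Markers that immune cells of all kinds share were measured beside them. Ptprc, the CD45 protein of all white cells, was at -3.77 ± 0.35 in KO chimeras and -3.89 ± 0.52 in control mice, seen in 7 of 8 animals of each group, with a difference of 0.12 ± 0.21 (adjusted p = 0.779 by limma). Of 13 such genes 1 fell, Cd52 (-0.48, adjusted p = 0.0374), a surface protein of white cells. Among 18 microglial genes Trem2 and C1qc fell, and 2 of the 18 differences were positive (median of the list -0.21). The genes named here that passed were chosen after their values were seen. Whether Ccl6 and Blnk, which fell, came from microglia, blood or other cells was not tested.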

How the data were processed

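Total RNA of hypothalamus from 8 KO chimeras and 8 control mice was hybridised to 1-colour (Cy3) Agilent arrays, 1 animal per array. The authors deposited the scanner's intensity per spot, background-subtracted and on a linear scale per the file headers, and the submitters' processing notes name Agilent Feature Extraction 10.7. The authors also deposited a table of log2 values of the same arrays, whose lowest value is 2.2; the sources used here do not state how it was scaled between arrays. Groups came from the labels.

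Without control and outlier spots, each log2 processed intensity was set relative to its array's 75th percentile, and a probe's spots were averaged (59305 spots, 55681 probes per array). A probe was tested if at least 50% of its spots were well above background on 8 or more of 16 arrays, with 1 probe per gene (the highest mean). The comparison used limma 3.58.1 under R 4.3.3 (lmFit, then eBayes), and p-values were adjusted by Benjamini-Hochberg over 24363 genes at a threshold of 0.05. Log2 differences are KO chimera minus control. Members were found by the gene name in the files, and other genes through RefSeq accession, current symbol or older symbol. Probe positions are those of the files, in mm9. Where a probe was not well above background on any array of a group, a bound on the fold was to be given, but in no such case did the bound exceed 1.

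The genes and lists were chosen with earlier results of these data known. All 32 genes are accounted for, and of each wider list the 3 genes with the smallest p are named. Each array is a separate animal per the labels, and the number of arrays limits the precision. There were 6 slides, 5 of them with both groups, and 2 scan days. Alternatives were quantile normalization, normexp background correction (offset 50), the deposited log2 table, looser and stricter detection limits, a test of all probes, slide, day or replicate number as a block, single scan days, trend and robust settings, array weights, another detection flag, and each animal left out. Leaving out slide 4 was added after the data were seen. The procedure was tested on simulated data. Some planned correlations with S100a8 were not run, as that gene was under the limit. Python 3.11.15 with matplotlib 3.10.9 drew the figures. Some results are left out here.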

Additional observations from a re-analysis of the deposited data

Results flagged for a closer look

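Groups of 8 animals were searched for a single animal far from the rest, over 34 groups of values, and 2 were found, where chance alone gives about 1 in 20. The level of Cd5 was lowest in KO chimera 2, at -3.27, while the nearest other KO chimera was at -2.56 and the median at -2.35, a gap of 0.536 of the group's range. The number of neutrophil genes well above background was highest in control 8, at 7, while the nearest other control mouse had 5 and the median was 5, a gap of 0.667 of the range. Control 8 was also the array with the most spots well above background, 72.9%, and the part of that in its count was not tested.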

How the results depend on the processing

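No member passed under any alternative except Lck, where probes had to be seen on all 16 arrays and 1 of 9 members passed (adjusted p = 0.0498 by limma); fewer genes were then adjusted over. The 933 genes called among all genes became 523 with quantile normalization, 271 with normexp, 536 with the deposited table and 598 with no filter. They became 488 with slide as a fixed block, 0 within scan day 1 and 7 within scan day 2. The count was higher, at 1273 with slide as a random block, 1265 with array weights, 1261 with the all-array filter and 1244 with trend and robust settings. With each animal left out it was 364 to 1030 (617 or fewer without KO chimera 2, 4, 6 or 7 or control 1, 5 or 7). The 2 genes called in the wider lists became 1 with normexp or the all-array filter, 0 within either scan day, 4 without slide 4, and 2 to 4 with each animal left out (4 without control 2). Single scan days held fewer animals; for the other settings the cause was not tested. Blnk was -0.63 and -0.50 within days 1 and 2, and Ccl6 was -0.97 and -0.32.

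The difference in neutrophil genes seen per animal, -0.625, became 0.875 with the scanner's looser flag for positive and significant signal. Small differences turned their sign. With normexp S100a9 was 0.061, Gzma 0.056, Prf1 0.0064 and Cd79a 0.0088. With quantile normalization Camp was -0.065, Cd5 -0.024 and Nkg7 0.040, and with the deposited table Camp was -0.069, Cd5 -0.029 and Nkg7 0.041. With slide as a block S100a9 was 0.020 and Nkg7 0.012. Within scan day 1 S100a9 was 0.71, Nkg7 0.072, Gzma 0.086 and Prf1 0.018, and within scan day 2 Camp was -0.047 and Mpo -0.052. Camp was -0.0012 with array weights. Without slide 4 Nkg7 was 0.00066 and Prf1 0.016. With each animal left out S100a9 ran from -0.56 to 0.16, Camp from -0.052 to 0.038, Nkg7 from -0.064 to 0.026 and Prf1 from -0.049 to 0.021.

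Replicate numbers did not pair the samples: the correlation of same-numbered animals was -0.0748 to 0.242 over 8 pairs, above 0.1 in 3. With the replicate number as a block 0 members, 812 of all genes and 2 genes of the wider lists passed, so it changed none of these calls on members. Signal limits 18 of the 32 genes, which lay under the limit for a test.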

Other observations

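The 18 members under the limit for a test had values near the bottom of the scale. In a fit with no filter on dim probes, 15 of the 18 (83.3%) had a positive difference, with a median of 0.32, against 88% of all 10242 genes under that limit, whose median was 0.41. By limma 0 of the 18 passed (lowest adjusted p = 0.0912), and 4 had an unadjusted p under 0.05 (22.2%, against 17.4% of all genes under the limit). The members thus lay near the other dim genes, and since most of their values were not well above background, no gene's difference is given. The lowest signal that was well above background differed between arrays, at -5.35 to -2.68 in KO chimeras (median -4.63) and -5.42 to -4.27 in control mice (median -4.88), and its part in these differences was not tested.

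The levels of Cd3e and Lck, both T cell receptor signalling genes, were set against each other over animals, the 1 of 5 planned pairs that could be run. Over 16 animals Pearson's r was 0.411 (permutation p = 0.112) and Spearman's rho 0.497 (permutation p = 0.0513). Within groups r was 0.15 in KO chimeras (exact permutation p = 0.712, n = 8) and 0.349 in control mice (exact permutation p = 0.397, n = 8). Within scan days r was 0.753 on day 1 (exact permutation p = 0.029, n = 8) and 0.33 on day 2 (exact permutation p = 0.418, n = 8). Without the 2 animals farthest from the median of Lck, r was 0.314 (permutation p = 0.274) and rho 0.363 over 14 animals. Only 1 relation was run, so the adjusted value equals the raw p.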
